A study of Mus musculus with 74 samples.

Results

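The response of mouse embryonic stem (ES) cells to the loss of LIF was followed in the Nanog/Otx2 SunTag line while its gene activator was switched off. Members were the libraries of Nanog/Otx2 cells without doxycycline (Dox), 4 cultured without LIF and 3 with it, and these 7 were taken from the 35 RNA-seq libraries of the count table. The cells derive from the E14Tg2a line and grew in serum, in the presence of 10 ng/mL LIF or in its absence, for 3 days. All carry a Dox-inducible SunTag activator (a dead Cas9 with GCN4 epitopes and an scFv antibody fused to VP64) and guide RNAs to the Nanog and Otx2 promoters. No Dox was given to these cultures. The Nanog/Otx2 line consists of 2 clones, C1ON3 and C2ON3, each 1 clone grown out after an Otx2 guide was added to the Nanog SunTag clones C1 and C2. The comparison set is the uninduced Nanog SunTag cells, which carry the Nanog guide alone, with 3 libraries in LIF and 3 without it. The question was which genes respond to LIF loss in the Nanog/Otx2 set, and which of them are lost in the spread of the Nanog set.

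LIF is a cytokine that binds a receptor made of Lifr and Il6st (gp130) and activates Jak kinases, which phosphorylate Stat3. In mouse ES cells this pathway sustains a network of naive pluripotency factors, among them Esrrb, Klf4, Tfcp2l1 and Nanog. Without LIF the cells leave the naive state, and genes of the post-implantation epiblast, such as Fgf5, Otx2 and Dnmt3b, are known to come up before markers of the germ layers.

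The guides are shown because they define the lines, with the PAM in capitals. Each had 1 exact site in the mm9 genome (NCBIM37).
Nanog guide: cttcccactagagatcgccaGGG
Otx2 guide: aatgtagagcgtgcatttggAGG
The Nanog site lies on the + strand at chr6:122657269-122657291, outside the gene, and its centre is 227 bases before the nearest annotated transcript start. The Otx2 site lies on the - strand at chr14:49282646-49282668, in an intron of the annotated gene, and its centre is 110 bases before the nearest transcript start.

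Values are normalised counts (the deposited estimated counts divided by a size factor for each library), rounded to whole numbers. In LIF they are given in the order C1ON3-1, C1ON3-2, C2ON3-1, and without LIF in the order C1ON3-1, C1ON3-2, C2ON3-1, C2ON3-2. Fold changes are log2 values without LIF against with LIF, with the standard error (SE) of the edgeR fit and a Benjamini-Hochberg adjusted p, and a gene was called when this was under 0.05. Where same-numbered libraries were fitted as pairs and this changed a call, that value is given as the blocked adjusted p. Unless stated, a fold change and SE printed beside it are those of the fit without pairs or a clone block. In RNA from whole cultures, fewer cells of a type and less RNA per cell cannot be told apart. The labels do not say whether libraries of a clone came from separate cultures, so p-values measure the spread between these samples, which may be technical.

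Library totals ran from 6107512 to 51380795 estimated counts in LIF and from 21499110 to 86864360 without it. The smallest belonged to the only C2ON3 library in LIF, which sets the precision for that clone. It also held 47 genes with at least 100 normalised counts and at least 10 times the value of every other of the 7 libraries, against 1 such gene in the C1ON3-1 library in LIF and none in the other 5 libraries. Of these, 16 were tested and 16 were called; none of them is named here. Over genes tested in both sets the log2 values of the LIF libraries correlated at r = 0.99 between the C1ON3 pair and at 0.957 and 0.964 between these and C2ON3, and those without LIF at 0.974 to 0.99. In the Nanog set, library C1-1 in LIF stood apart, with r = 0.939 and 0.942 to the others of its group, which had 0.983 between them. It was the only C1 library of that group, the others being C2. Its total of 10937367 was the lowest, against up to 24306046 in that group and 23334968 to 35412131 without LIF. Clone, depth and library cannot be told apart there. Transcripts of the mitochondrial genome took 4.82% to 5.75% of counts in LIF and 3.58% to 4.67% without it. In the uninduced Nanog set they took 8.48% to 10.9% in LIF and 6.99% to 8.02% without it.

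Withdrawal of LIF changed the level of 49.8% of the genes tested, 7768 of 15609. Those higher without LIF numbered 3834 (24.6%) and those lower 3934 (25.2%), and the median fold change of all tested genes was -0.01. At least 1 log2 unit separated the groups for 1858 genes higher and 1721 lower without LIF, and at least 3 units for 268 and 313. The groups did not overlap for 48.6% of tested genes, 7582, and for 6915 of those called. Precision followed the level of the gene. The median SE was 0.38 for 4386 genes with a mean under 100 normalised counts, 0.17 for 5970 genes between 100 and 1000, and 0.10 for 5253 genes above. Called genes made up 48.4%, 52.3% and 48% of these classes. Of the called genes, 7603 (97.9%) moved in the same direction in both clones. They were called from the libraries of both clones together, so this share is partly fixed by the selection and is no test of agreement.

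Both chains of the LIF receptor, the transcription factor Stat3 and the feedback gene Socs3 were lower without LIF, while other genes of the pathway did not pass the test or rose. Of the 28 tested genes of the receptor and JAK-STAT3 list, 12 were lower without LIF and 4 higher, 57.1% called against 49.8% of all genes, with a median of -0.12 against -0.01 for all genes; with pairs 12 were lower and 7 higher. Socs3, the feedback inhibitor of this pathway (chr11:117827393-117831361 (- strand) in mm9), had 2152, 3734 and 4388 in LIF and 84, 71, 77 and 51 without it (-5.59, SE 0.33, adjusted p = 5.92e-09). The lowest library in LIF lay far above the highest without it. Bcl3, a nuclear cofactor of NF-kB, had 559, 640 and 745 in LIF and 30, 24, 11 and 19 without it (-4.93, SE 0.23, adjusted p = 8.76e-10). Its libraries without LIF stayed at or under 30.

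The 2 receptor chains fell by different amounts. Lifr, the LIF-binding chain (chr15:7079559-7147489 (+ strand)), had 2044, 2800 and 2666 in LIF and 241, 390, 326 and 489 without it (-2.84, SE 0.19, adjusted p = 2.54e-08). Il6st, the signalling chain that it shares with other cytokines, had 2011, 2208 and 1940 in LIF and 710, 758, 957 and 1063 without it (-1.27, SE 0.12, adjusted p = 6.22e-07). Neither gene overlapped between the groups. Stat3 (chr11:100746412-100800854 (- strand)) had 2623, 2981 and 3328 in LIF and 489, 431, 523 and 494 without it (-2.65, SE 0.09, adjusted p = 5.45e-11), with the 4 libraries without LIF within 100 of each other. Stat5a (-1.34 ± 0.25), the AP-1 subunit Junb (-2.16 ± 0.37) and the kinases Tyk2 (-0.92 ± 0.24), Pim1 (-0.94 ± 0.12) and Pim3 (-1.46 ± 0.10) fell as well (log2 fold change ± SE). The kinase genes of the receptor did not pass the test at Jak1, which had 1348, 1311 and 1217 in LIF and 1339, 1238, 1240 and 1174 without it (adjusted p = 0.35). Il6ra, the interleukin 6 receptor, had 40, 34 and 19 in LIF and 26, 13, 5 and 12 without it and was called in this fit (adjusted p = 0.0411) but not in several of the alternatives: without the C1ON3-1 library in LIF its adjusted p was 0.155.

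Pim2, a serine/threonine kinase of the same family as Pim1 and Pim3, went the other way. It had 1691, 1139 and 491 in LIF and 30667, 27665, 28835 and 25348 without it (4.59, SE 0.31, adjusted p = 2.53e-08), so that every library without LIF exceeded every library in LIF by more than 10 times. Gadd45g, a stress-response gene, rose (54, 67 and 42 in LIF and 146, 230, 297 and 317 without it; 2.08, SE 0.28, adjusted p = 2.06e-05). The phosphatase Ptpn11 (0.63 ± 0.11) and Socs6 (0.50 ± 0.11) rose by less. Lif itself had 105, 109 and 97 in LIF and 171, 115, 164 and 101 without it, which did not pass the test (adjusted p = 0.17). It did with pairs by title number (blocked adjusted p = 0.0437), but not when the only C2ON3 library in LIF was paired by its number in the count table.

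Promoter windows of these genes were searched for the palindrome TTCNNNGAA, the core of a Stat binding motif, in the 250 bases before and the 50 bases after each start in the RefSeq table of GRCm38.p6, a later build than mm9. The motif is the same on both strands, and 8.3% of 32851 windows of all genes hold it. Of the 24 genes of this list with a window, 2 hold it, Socs3 and Cish. They are printed because both hold the pattern, with other letters in its middle, and did not respond alike. The motif is in capitals.
Socs3 (GRCm38.p6 chr11:117969417-117969566, - strand): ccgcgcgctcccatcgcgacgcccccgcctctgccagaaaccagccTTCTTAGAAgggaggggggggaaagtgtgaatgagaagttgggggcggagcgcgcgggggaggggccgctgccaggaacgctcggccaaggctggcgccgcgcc
Cish (GRCm38.p6 chr9:107296656-107296681, + strand): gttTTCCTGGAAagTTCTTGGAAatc
The Socs3 motif starts 154 bases before the transcript start. Cish, another feedback inhibitor of Jak and Stat signalling, holds 2 motifs at its start and had 97, 123 and 93 in LIF and 97, 107, 77 and 71 without it (-0.29, SE 0.27, adjusted p = 0.393), with overlapping groups. A match of letters is not a shown binding site.

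**Figure D1:**
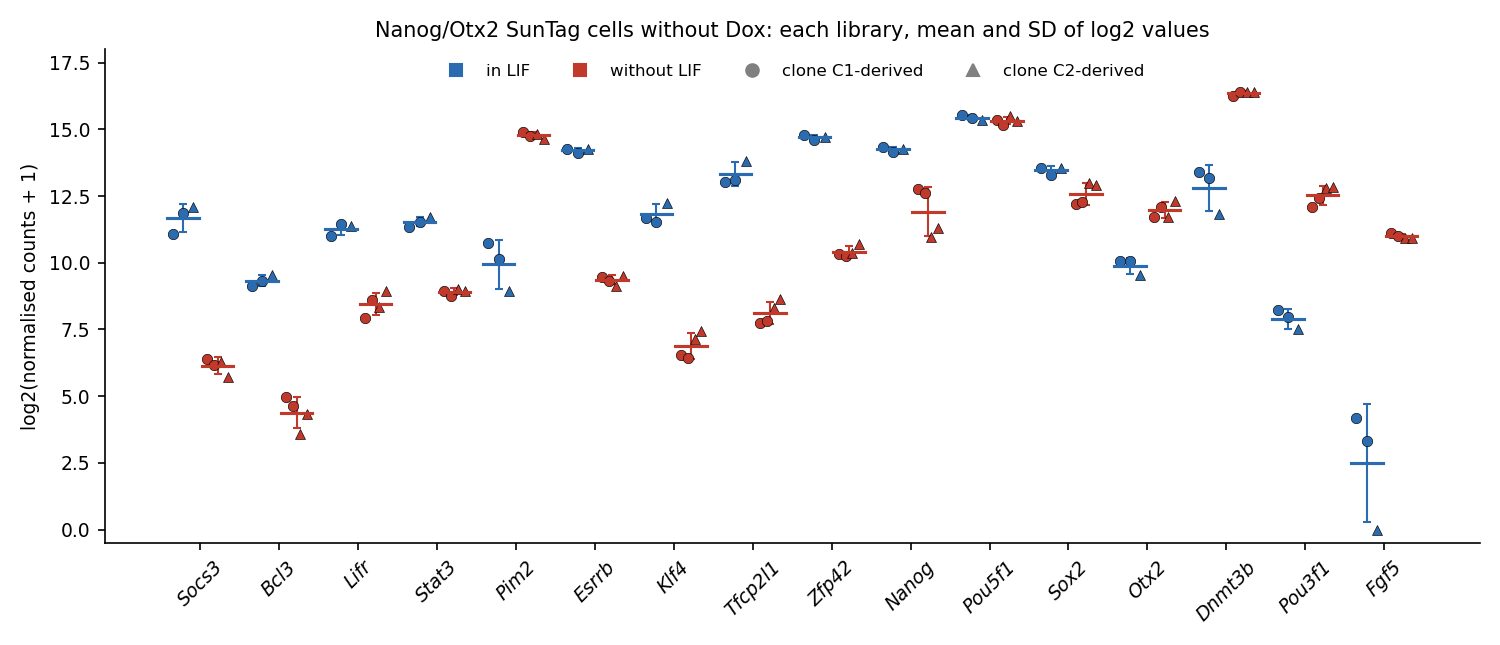
Log2(normalised counts + 1) of 16 genes in each of the 7 uninduced Nanog/Otx2 libraries, blue in LIF and red without it, circles for C1ON3 and triangles for C2ON3, with the mean and SD of each group as bars. Socs3, Bcl3 and the naive factors sit lower without LIF, Pou5f1 lies at the same height in both groups, and Pim2, Dnmt3b, Pou3f1 and Fgf5 sit higher without LIF.

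The naive factors fell almost without exception. Of the 25 tested, 24 were lower without LIF, with a median of -3.36, and 1, Nacc1, was higher. The share called was thus 100%, against 49.8% of all genes. Esrrb, an orphan nuclear receptor that occupies many ES cell enhancers (chr12:87702067-87862578 (+ strand)), had 19756, 17725 and 19744 in LIF and 712, 638, 562 and 720 without it (-4.89, SE 0.11, adjusted p = 3.1e-13). Klf4, a zinc finger factor and direct LIF target (chr4:55540013-55545347 (- strand)), had 3252, 2944 and 4847 in LIF and 92, 85, 140 and 171 without it (-4.95, SE 0.28, adjusted p = 3.62e-09). Tfcp2l1, a factor downstream of Stat3, had 8380, 8858 and 14554 in LIF and 214, 225, 314 and 397 without it (-5.24, SE 0.34, adjusted p = 1.54e-08). In all 3 the highest library without LIF was far below the lowest in LIF.

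Further members of the naive network fell by 3 to 5 log2 units: Tcl1 (-4.97 ± 0.31), Tbx3 (-4.56 ± 0.33), Prdm14 (-4.33 ± 0.15), Zfp42 or Rex1 (-4.32 ± 0.14), Fbxo15 (-4.24 ± 0.17), Nr0b1 or Dax1 (-4.03 ± 0.30), Klf2 (-3.98 ± 0.21), the 5-methylcytosine oxidase Tet2 (-3.83 ± 0.18), Klf5 (-3.36 ± 0.16) and Nr5a2 (-3.16 ± 0.53). Nanog (chr6:122657507-122664651 (+ strand)) differed between the clones. It had 20533, 18320 and 19586 in LIF and 6867, 6327, 1974 and 2533 without it (-2.17, SE 0.33, adjusted p = 7.05e-05), so that without LIF both C1ON3 libraries lay above both C2ON3 libraries. The smallest falls were those of Fgf4 (-0.67 ± 0.17), an FGF ligand that ES cells secrete, and Dppa4 (-0.62 ± 0.10). Nacc1 had 7202, 8104 and 7166 in LIF and 10063, 10016, 9266 and 8497 without it (0.30, SE 0.08, adjusted p = 0.00628), and the call was lost when all 26 SunTag libraries were fitted together (adjusted p = 0.105). Dppa3 (Stella), a maternal factor, had 476, 309 and 51 in LIF and 57, 110, 42 and 59 without it (-2.18, SE 0.64, adjusted p = 0.0102). Its groups overlap at the C2ON3 library in LIF, and without the C1ON3-1 library in LIF it was not called (adjusted p = 0.0742).

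Factors that naive and primed cells share moved in both directions. Of 14 tested, 4 rose, 5 fell and 5 were not called, with a median of -0.04. The share called was 64.3% against 49.8% of all genes. Pou5f1 (Oct4) had 47215, 44027 and 41714 in LIF and 41227, 36863, 45805 and 40336 without it (-0.14, SE 0.08, adjusted p = 0.152), with overlapping groups, and was called without the C2ON3-1 library lacking LIF (adjusted p = 0.0496). Sall4 (0.07 ± 0.11) and Trim71 (0.05 ± 0.08), a repressor of mRNAs, were not called either. Sox2, the partner of Oct4, had 12106, 9991 and 11957 in LIF and 4683, 4944, 8040 and 7772 without it (-0.87, SE 0.18, adjusted p = 0.00114), and both C1ON3 libraries without LIF lay below both C2ON3 libraries. Tdgf1 (Cripto), the Nodal coreceptor, fell (-1.56 ± 0.13), while the let-7 inhibitors Lin28a (0.87 ± 0.12) and Lin28b (1.57 ± 0.08) rose. Utf1, a chromatin factor of ES cells, had 5083, 5681 and 6550 in LIF and 7389, 8255, 9542 and 9471 without it (0.56, SE 0.11, adjusted p = 0.000753), and was not called when all 26 SunTag libraries were fitted together (adjusted p = 0.166).

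Formative and primed markers rose. Of 22 tested, 18 were higher without LIF and none lower, 81.8% called against 49.8% of all genes, with a median of 2.02. With pairs 19 were higher and 2 lower. Fgf5, the standard marker of the epiblast after implantation (chr5:98683203-98706049 (+ strand)), had 17, 9 and 0 in LIF and 2238, 2068, 1944 and 1929 without it (7.38, SE 0.41, adjusted p = 3.62e-09). It was close to nothing in LIF, at 0 in C2ON3, and at a like level in all 4 libraries without it. Dnmt3b, a de novo DNA methyltransferase (chr2:153475186-153513466 (+ strand)), had 10708, 9310 and 3639 in LIF and 78562, 86763, 85777 and 86432 without it (3.38, SE 0.32, adjusted p = 7.51e-07). In LIF it was lowest in C2ON3, whereas the libraries without LIF lay within a narrower range, C1ON3-1 below the other 3. Otx2, a homeobox factor of the primed epiblast (chr14:49277354-49287319 (- strand)) and here the second target of the guides, had 1062, 1059 and 736 in LIF and 3372, 4389, 3387 and 5148 without it without any Dox (2.04, SE 0.16, adjusted p = 8.4e-08).

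Pou3f1 (Oct6), listed under a pair of identifiers between which reads may be split, had 300, 248 and 181 in LIF and 4332, 5462, 7066 and 7294 without it under the more abundant one (4.54, SE 0.31, adjusted p = 3.03e-08). The Spalt factor Sall2 (4.72 ± 0.28), the carbonic anhydrase Car4 (4.31 ± 0.20), Sox3 (3.62 ± 0.29), Zic2 (3.03 ± 0.38) and Dnmt3a (1.99 ± 0.25) rose too. Sema6a, an axon guidance ligand, rose from 78, 41 and 46 in LIF to 3137, 2375, 1973 and 1662 without it (5.28, SE 0.48, adjusted p = 4.82e-07). The 4 markers not called were Sall3 (-0.48, adjusted p = 0.174) and 3 whose call changed with pairs: Dnmt3l, the cofactor of Dnmt3a and Dnmt3b (-0.77, blocked adjusted p = 0.00761), Etv4 (-0.36, blocked adjusted p = 0.000431) and Enpp3 (0.70, blocked adjusted p = 0.00216). Dnmt3l had 12332, 14076 and 8920 in LIF and 3347, 5065, 9098 and 10796 without it. It was lower in both C1ON3 libraries without LIF, and in C2ON3 the libraries without LIF lay above the single library in LIF.

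**Figure D2:**
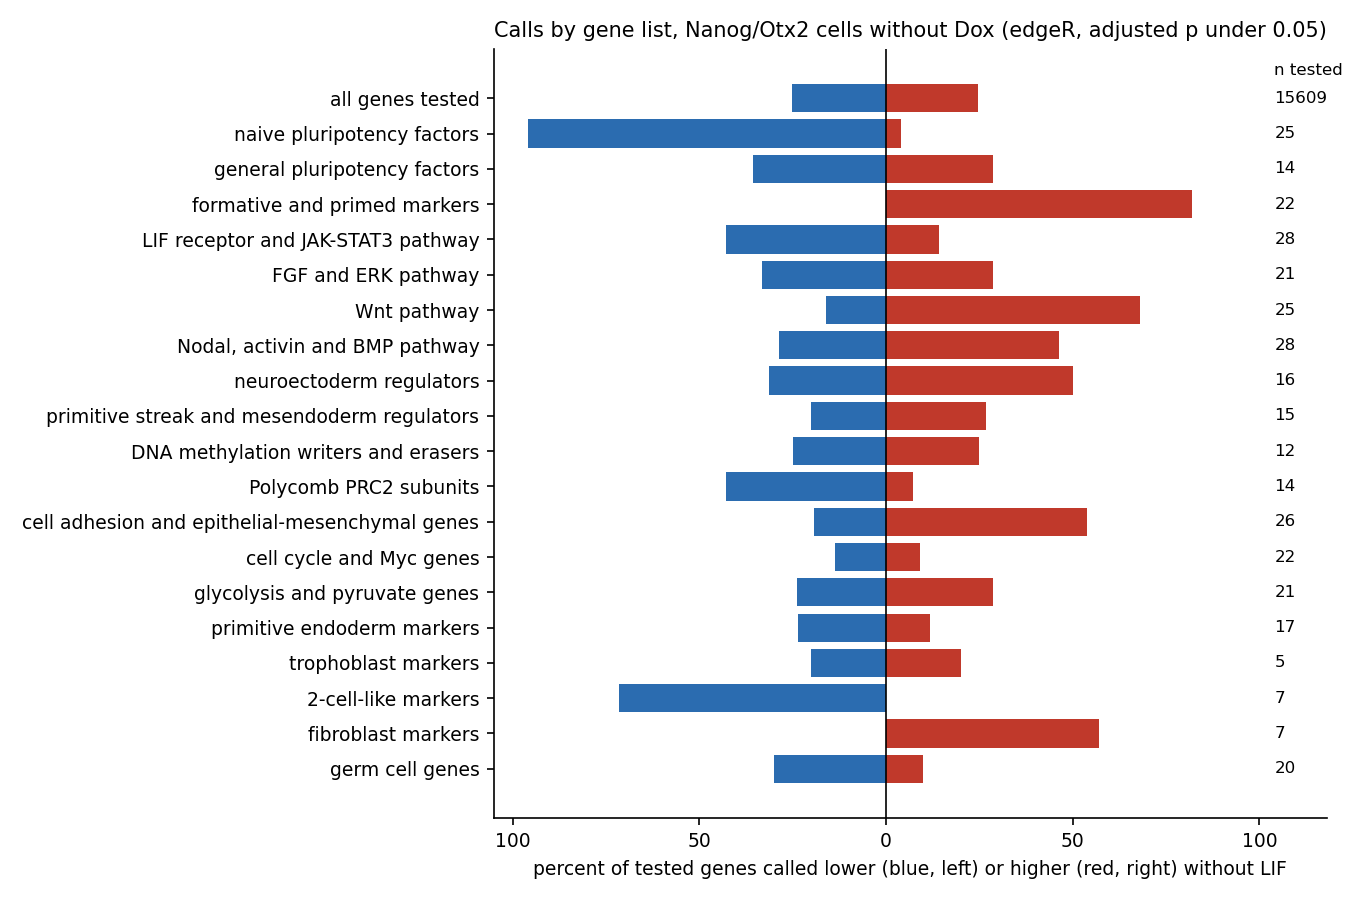
Percent of tested genes called lower (blue, left of zero) or higher (red, right of zero) without LIF for each gene list and for all 15609 genes tested, with the number tested at the right. The naive list is almost wholly on the left, the formative and Wnt lists lie mainly on the right, and the cell cycle list has the smallest bars.

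Of 21 tested genes of FGF signalling, 6 rose and 7 fell (median 0.07), 61.9% called against 49.8% of all genes, which were likewise split between both directions. Among the ligands, Fgf10 (91, 116 and 97 in LIF and 10, 12, 12 and 11 without it; -3.20, SE 0.23, adjusted p = 4.29e-08) and Fgf17 (-2.67 ± 0.35) fell. Fgfr1, the main FGF receptor of ES cells, rose (1523, 1641 and 2009 in LIF and 3743, 3628, 3741 and 3668 without it; 1.08, SE 0.09, adjusted p = 1.66e-07). Among the feedback genes of ERK signalling, Dusp4 (2.50 ± 0.19) and Spry1 (1.66 ± 0.25) rose, while Spry2 (-1.17 ± 0.17), the immediate early gene Egr1 (-1.81 ± 0.37) and the ETS factor Etv5 (-0.46 ± 0.07) fell. Spry4 had 1593, 4519 and 3805 in LIF and 1046, 2366, 2735 and 3677 without it. The C1ON3-1 library was the lowest of each group, and the gene was called only with pairs (adjusted p = 0.428, blocked adjusted p = 0.0018).

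Most Wnt pathway genes rose. Of 25 tested, 17 were higher without LIF and 4 lower, 84% called against 49.8% of all genes, and their median was 1.17. Among the receptors, Fzd2 had 139, 150 and 93 in LIF and 1157, 1368, 1372 and 1512 without it (3.30, SE 0.17, adjusted p = 1.82e-09) and Fzd7 1691, 2157 and 2366 in LIF and 5928, 7016, 11139 and 13154 without it (2.14, SE 0.36, adjusted p = 0.000188), while Fzd5 fell (2874, 3585 and 6120 in LIF and 695, 855, 932 and 1220 without it; -2.20, SE 0.28, adjusted p = 1.37e-05). None of these overlapped between the groups. The nuclear factors Lef1 (1.88 ± 0.23), Tcf7 (1.40 ± 0.10) and Tcf7l1 (1.23 ± 0.17), the last a repressor of the naive network, rose. The secreted antagonists parted, Sfrp2 up (2.33 ± 0.14) and Sfrp1 down (-0.68 ± 0.10). The ligands Wnt3 (4, 5 and 0 in LIF and 24, 26, 33 and 38 without it; 2.80, SE 0.43, adjusted p = 7.2e-05) and Wnt8a (2.09 ± 0.34) rose from very low levels. Ctnnb1 (beta-catenin) had 27064, 26432 and 28835 in LIF and 27898, 27182, 30795 and 31226 without it (0.06, SE 0.08, adjusted p = 0.56), and Axin2, the usual readout of its activity, had 146, 234 and 171 in LIF and 289, 292, 167 and 177 without it (adjusted p = 0.414, blocked adjusted p = 0.0324).

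In the Nodal, activin and BMP list 13 of 28 tested genes rose and 8 fell (median 0.27), 75% called against 49.8% of all genes. The ligands moved in both directions. Inhbb, the beta B subunit of activin and inhibin (chr1:121312042-121318825 (- strand)), had 1354, 1942 and 6291 in LIF and 4, 17, 28 and 60 without it (-7.08, SE 0.91, adjusted p = 1.54e-05). The C2ON3 library in LIF was the highest and the C1ON3-1 library without LIF the lowest, with no overlap. Bmp4 (425, 671 and 708 in LIF and 87, 96, 64 and 93 without it; -2.84, SE 0.18, adjusted p = 1.57e-08), Nodal (-0.80 ± 0.14) and Lefty2 (-1.87 ± 0.55), a Nodal antagonist, fell, the last not called without the C1ON3-1 library in LIF (adjusted p = 0.0664). The ligand Bmp8b rose (40, 45 and 42 in LIF and 104, 99, 168 and 112 without it; 1.49, SE 0.22, adjusted p = 4.76e-05). Lefty1 had 2327, 1411 and 190 in LIF and 2737, 1017, 913 and 333 without it and was not called (adjusted p = 0.902).

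The activin antagonist Fst rose (58, 48 and 42 in LIF and 395, 343, 256 and 213 without it; 2.54, SE 0.28, adjusted p = 3.58e-06), as did the BMP targets Id1 (1.48 ± 0.39), Id2 (1.93 ± 0.32) and Id3 (1.52 ± 0.35), inhibitors of basic helix-loop-helix factors. The inhibitory Smad7 fell (-1.22 ± 0.14). Of the receptors, Bmpr1a (0.79 ± 0.07) and Acvr2b (0.85 ± 0.18) rose, and Bmpr2 had 174, 215 and 393 in LIF and 273, 297, 396 and 406 without it (adjusted p = 0.297, blocked adjusted p = 0.0406).

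Early lineage regulators changed in part. Of 16 neuroectoderm genes tested, 8 rose and 5 fell (median 0.57), 81.2% called against 49.8% of all genes. Of 15 primitive streak and mesendoderm genes 4 rose and 3 fell (median 0.08), 46.7% called and so near the share of all genes. The rising neural genes were led by the homeobox genes Irx5 (3, 5 and 0 in LIF and 42, 78, 171 and 164 without it; 4.79, SE 0.70, adjusted p = 4.97e-05) and Irx3 (4.41 ± 0.71). Nes, the intermediate filament of neural progenitors, had 343, 256 and 176 in LIF and 3130, 2068, 914 and 700 without it (2.63, SE 0.47, adjusted p = 0.000298), and both C1ON3 libraries without LIF lay above both C2ON3 libraries. Sox11 rose (2.39 ± 0.23), while Sox21 (144, 67 and 69 in LIF and 5, 9, 10 and 8 without it; -3.67, SE 0.42, adjusted p = 4.6e-06), Ncam1 (-2.51 ± 0.19) and the neuronal tubulin Tubb3 (-1.58 ± 0.13) fell. Pax6 had 330, 287 and 79 in LIF and 311, 239, 195 and 157 without it (-0.14, SE 0.45, adjusted p = 0.82), with overlapping groups.

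Among streak genes, Eomes (77, 93 and 93 in LIF and 165, 178, 208 and 263 without it; 1.19, SE 0.27, adjusted p = 0.0017), Mixl1 (1.59 ± 0.33) and Msx1 (3.72 ± 0.53) rose. Cdx1 had 23, 23 and 51 in LIF and 1, 0, 0 and 1 without it, at least 11.9-fold lower when its libraries without LIF are set to the floor of 3 counts in each library. Hoxb1 had 1, 1 and 0 in LIF and 18, 17, 52 and 30 without it, at least 5-fold higher by the same bound. Evx1 was low in all 7 libraries (13, 11 and 9 in LIF and 2, 1, 3 and 6 without it; -1.95, SE 0.57, adjusted p = 0.0106). With counts thinned to the smallest library it was not called (-0.37, adjusted p = 0.852). In a fit with separate clones its change in C2ON3, with 1 library in LIF, was -1.11.

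Among writers and erasers of DNA methylation, 3 of 12 tested rose and 3 fell (median 0.04), 50% called and so at the 49.8% of all genes. Tet1, the main 5-methylcytosine oxidase of ES cells beside Tet2 (chr10:62267318-62361866 (- strand)), had 14548, 18717 and 16957 in LIF and 4839, 6698, 5035 and 6297 without it (-1.58, SE 0.13, adjusted p = 1.8e-07). Tet3 rose (209, 296 and 333 in LIF and 736, 826, 745 and 880 without it; 1.51, SE 0.17, adjusted p = 3.46e-06), as did the glycosylase Tdg (0.86 ± 0.08). The maintenance methyltransferase Dnmt1 (-0.02 ± 0.07) and its partner Uhrf1 (-0.13 ± 0.07) were not called, with groups that overlapped for Dnmt1. Of 14 tested genes of the Polycomb complex PRC2, 6 fell and 1 rose (median -0.30), again 50% called, with 9 lower when paired. Its core subunit Eed had 7853, 9000 and 8268 in LIF and 2710, 2968, 3468 and 3596 without it (-1.43, SE 0.12, adjusted p = 2.35e-07), and the accessory subunits Mtf2 (-1.20 ± 0.11) and E130012A19Rik or Epop (-1.83 ± 0.20) fell as well. The catalytic subunit Ezh2 fell less (-0.50 ± 0.06). Suz12 had 6962, 7362 and 6569 in LIF and 5112, 5818, 6599 and 6843 without it (adjusted p = 0.0719, blocked adjusted p = 0.0128). The H3K27 demethylase Kdm6b rose (0.81 ± 0.15).

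Of 26 adhesion and epithelial-mesenchymal genes, 14 rose and 5 fell (median 0.38), 73.1% called against 49.8% of all genes. Cdh1 (E-cadherin) had 10882, 9513 and 8203 in LIF and 19873, 16656, 17665 and 16351 without it (0.85, SE 0.12, adjusted p = 4.4e-05). The tight junction gene Cldn7 had 109, 60 and 32 in LIF and 1221, 930, 466 and 431 without it (3.32, SE 0.57, adjusted p = 0.000211), and Krt18, a keratin of simple epithelia, 228, 150 and 153 in LIF and 2032, 1238, 1591 and 1273 without it (3.05, SE 0.24, adjusted p = 1.3e-07). Krt8 (1.94 ± 0.21) and Ocln (2.09 ± 0.26) rose with them. Of the genes known from mesenchymal cells, Zeb1, a repressor of Cdh1 (342, 496 and 393 in LIF and 21, 42, 28 and 35 without it; -3.79, SE 0.34, adjusted p = 4.18e-07), Vim (-1.91 ± 0.21) and fibronectin, Fn1 (-1.45 ± 0.16), fell, whereas Twist1, a mesenchymal transcription factor, rose (27, 32 and 23 in LIF and 52, 61, 54 and 46 without it; 0.88, SE 0.27, adjusted p = 0.0123), though it was not called without the C1ON3-1 library in LIF (adjusted p = 0.0507). Cdh2 (N-cadherin), counted with the formative markers, rose (1.71 ± 0.26).

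Of 22 cell cycle and Myc genes tested, 2 were higher and 3 lower, 22.7% called against 49.8% of all genes. With pairs 4 were higher and 5 lower, against 61.8% of all genes called in that fit, and in Nanog cells 6 were higher and 3 lower, against 41.5% of all genes. The proliferation markers Pcna (13920, 12307 and 13189 in LIF and 13278, 12248, 15091 and 12977 without it; -0.00, SE 0.08, adjusted p = 0.968) and Mki67 (-0.09 ± 0.10) were not called. Cyclin D3, Ccnd3, fell (6451, 7415 and 8231 in LIF and 2583, 2482, 2716 and 3082 without it; -1.47, SE 0.12, adjusted p = 1.47e-07), as did the cyclin-dependent kinase inhibitor Cdkn1a (-1.11 ± 0.21). Mycl1 rose (524, 368 and 301 in LIF and 1726, 1617, 1771 and 1581 without it; 2.01, SE 0.16, adjusted p = 1.04e-07). Ccne2 had 477, 626 and 468 in LIF and 689, 774, 794 and 717 without it (adjusted p = 0.0158) and was not called without either the C1ON3-1 or the C2ON3-1 library in LIF (0.0743 and 0.0542).

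Of 21 tested genes of glycolysis and pyruvate use 6 were higher and 5 lower, 52.4% called and so near the 49.8% of all genes. The 3 phosphofructokinase genes moved apart: Pfkp had 14578, 13305 and 12522 in LIF and 3062, 2887, 1827 and 2708 without it (-2.39, SE 0.15, adjusted p = 1.06e-08), Pfkl 13622, 13309 and 12212 in LIF and 24111, 22267, 17739 and 18099 without it (0.62, SE 0.16, adjusted p = 0.00391) and Pfkm 897, 990 and 1180 in LIF and 2044, 1775, 2241 and 2016 without it (0.96, SE 0.14, adjusted p = 5.65e-05). The hexokinases Hk1 (-1.43 ± 0.17) and Hk2 (-0.73 ± 0.09) and the pyruvate dehydrogenase subunit Pdha1 (-0.55 ± 0.06) fell. The glucose transporter Slc2a1 (0.86 ± 0.14), Ldha (0.41 ± 0.11), Gpi1 (0.38 ± 0.08) and Pkm2 (0.26 ± 0.08) rose, the last not called when all 26 SunTag libraries were fitted together (adjusted p = 0.208). Pgk1 and Tpi1 were not called in this fit but were with pairs (0.29, blocked adjusted p = 0.000653, and 0.34, blocked adjusted p = 0.000384). Both were also called with the clone as a term (adjusted p = 0.000847 and 0.000352).

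Markers of other cell types that serum cultures can hold were read as whole lists. Those of primitive endoderm summed to 12996 to 20095 normalised counts in LIF and 12266 to 17705 without it. Of 17 tested, 2 were higher and 4 lower, 35.3% called against 49.8% of all genes. With pairs 2 were higher and 8 lower, against 61.8% of all genes called. In Nanog cells 1 was higher and 10 lower, against 41.5% of all genes called. Hnf4a (177, 205 and 167 in LIF and 15, 20, 24 and 38 without it; -2.99, SE 0.31, adjusted p = 2.03e-06) and Lama1 (-2.17 ± 0.32) fell, and the endocytic adaptor Dab2 (1.85 ± 0.40) rose. Gata4 (-0.04 ± 0.36) was not called, and Sox17 only with pairs (-0.67, blocked adjusted p = 0.0452). The call of Sox17 was absent when the only C2ON3 library in LIF was paired by its number in the count table. Gata6 was not called in this fit but was with pairs (-1.38, blocked adjusted p = 0.000578). It was also called with DESeq2 (adjusted p = 0.0236), with thinned counts (0.00738) and with the clone as a term (0.00375). Trophoblast markers summed to 1270 to 1704 in LIF, mostly Tfap2c, and to 232 to 565 without it. Of 5 tested, 1 was higher and 1 lower, 40% called against 49.8% of all genes. The higher one was Gata2. The lower one was Tfap2c, which ES cells express too (1524, 1018 and 1231 in LIF and 85, 86, 158 and 197 without it; -3.31, SE 0.29, adjusted p = 2.83e-07). Prl3d1 and Tpbpa were at 0 in all 7 libraries.

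Fibroblast markers summed to 556 to 778 in LIF and 698 to 1010 without it. Of 7 tested, 57.1% were called against 49.8% of all genes, and all 4 called genes were higher. These were the smooth muscle actin Acta2 (6, 12 and 5 in LIF and 62, 45, 80 and 82 without it; 2.88, SE 0.33, adjusted p = 4.85e-06), Col1a2 (2.39 ± 0.40), Col1a1 (1.17 ± 0.38) and Dcn, which had 2, 0 and 0 in LIF and 53, 42, 13 and 7 without it and was at least 4.92-fold higher, with Lum at 0 throughout. Col1a1 was not called without either C1ON3-1 library, nor without the second C1ON3 library of either group (adjusted p 0.0519 to 0.113). It was not called either with counts thinned to the smallest library (0.46, adjusted p = 0.459) or in the libraries without Dox alone (adjusted p = 0.0733). Markers of 2-cell-like cells fell for 5 of 7 tested (median -1.0), 71.4% called against 49.8% of all genes. The 5 included Zscan4c, of a family of near-identical copies (1069, 693 and 407 in LIF and 346, 326, 246 and 205 without it; -1.42, SE 0.31, adjusted p = 0.00153), which was not called with all 26 SunTag libraries (adjusted p = 0.0785). Of 20 germ cell genes, 2 rose and 6 fell, 40% called and so under the 49.8% of all genes. Kit (-2.04 ± 0.19) and Prdm1 or Blimp1 (-2.31 ± 0.32) were down and Tdrd1 (2.42 ± 0.26) was up. Piwil2 and Sycp2 differed between the clones more than between the groups. They were not called in this fit (-0.84 and 1.34). With pairs they were called, with changes of -1.28 (blocked adjusted p = 1.17e-07) and 0.88 (blocked adjusted p = 8.93e-05). Both were also called with the clone as a term (adjusted p = 1.6e-07 and 6.26e-05). The part of other cells in the response was not tested.

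The largest changes among well expressed genes with no overlap lay mostly outside these lists. Among those that rose, Kif1a, a motor for synaptic vesicle precursors, had 184, 81 and 162 in LIF and 7231, 4825, 5532 and 4837 without it (5.32, SE 0.45, adjusted p = 2.37e-07), the lysophospholipase Enpp2 (autotaxin) had 184, 70 and 9 in LIF and 4848, 4562, 3529 and 3911 without it (5.27, SE 0.44, adjusted p = 1.97e-07), and the chemokine Cxcl12 had 50, 52 and 19 in LIF and 1550, 2194, 1416 and 2081 without it (5.25, SE 0.26, adjusted p = 1.16e-09). Spon1 (6.17 ± 0.48), Zfp467 (5.63 ± 0.46) and Epn3 (5.31 ± 0.45) followed. Shisa6 (1, 1 and 0 in LIF and 110, 131, 146 and 166 without it) and the phosphodiesterase Pde4b (1, 1 and 0 in LIF and 149, 95, 147 and 82 without it) had at most 3 counts in each library in LIF, and were at least 23.6-fold and 20.2-fold higher without it.

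Among the genes that fell, the small GTPase Mras had 1897, 2098 and 3134 in LIF and 21, 16, 17 and 21 without it (-6.97, SE 0.33, adjusted p = 8.92e-10), and the microtubule-associated tau gene, Mapt, 1431, 1293 and 1555 in LIF and 13, 13, 24 and 24 without it (-6.34, SE 0.25, adjusted p = 2.78e-10). Both dropped from over 1000 in every library in LIF to under 30 without it. The protease inhibitor gene Serpinb1a (170, 122 and 139 in LIF and 1, 4, 2 and 3 without it) reached the floor without LIF, and was at least 53.2-fold lower. Napsa (-5.78 ± 0.49) and the genes Gm7325 (-6.23 ± 0.31), 2410004A20Rik (-6.19 ± 0.49), 2310043M15Rik (-5.71 ± 0.82) and Gm216 (-5.68 ± 0.33) were, with Inhbb, also among those that fell most.

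The same withdrawal in uninduced Nanog cells called 6481 of 15624 genes (41.5%). The 2 sets share no library, but differ in the added Otx2 guide, in a further cloning step and in the prefix of their library names. These cannot be told apart. Of 15023 genes tested in both, 4769 were called in both, and 4755 of these (99.7%) moved in the same direction. Of the naive list 23 of 25 tested genes fell there and none rose, and of the formative list 20 of 23 rose and 2 fell. The Nanog cells alone called 1521 genes. The Nanog/Otx2 cells alone called 2782 genes, 18.5% of those tested in both, of which 1366 were higher and 1416 lower without LIF.

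These 2782 genes were mostly small changes, measured with a smaller error in Nanog/Otx2 cells and with a larger median size there. The median absolute change was 0.58 in Nanog/Otx2 cells and 0.37 in Nanog cells. In the edgeR test of Nanog cells 601 of these genes (21.6%) had an unadjusted p under 0.05. Their median SE was 0.14 in Nanog/Otx2 cells and 0.26 in Nanog cells, and it was larger in Nanog cells for 2649 (95.2%), against 88.6% of all genes tested in both, whose median SE was 0.17 and 0.26. A change under 1 log2 unit in Nanog/Otx2 cells was seen for 2111 of them and a larger one for 671. In Nanog cells 2383 (85.7%) pointed the same way, against 80.1% of all genes tested in both, and 399 the opposite way. For 2182 genes (78.4%) the Nanog/Otx2 value lay inside the 95% interval of the Nanog value, against 77.3% of all genes tested in both. A larger SE in Nanog cells, the same direction and a value inside that interval held together for 2021 genes (72.6%). The joint share over all genes tested in both was not taken, so the 72.6% cannot be read as a trait of these genes. The test of the difference between the sets called 55 of the 2782 (1.98%), against 2.49% of all genes. Since membership itself was decided by these tests, the figures describe the genes and are no test of them.

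Calls in the Nanog cells moved with 1 library and with the clone. Without the C1-1 library in LIF the Nanog cells called 7953 genes, and 564 (20.3%) of the 2782 were among them. That fit left only clone C2 in the uninduced group in LIF. With the clone as a block in the Nanog cells 501 of the 2782 (18%) were called, 499 of them in the same direction as in Nanog/Otx2 cells. The remaining 2281 were called in neither of the Nanog fits with and without the block. Both changed fits called more genes in all than the 6481 of the main fit, 7239 with the block and 7953 without C1-1. The share that they gained among other genes not called in Nanog cells was not taken. Whether the 2782 were gained more often than those was thus not tested.

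**Figure D3:**
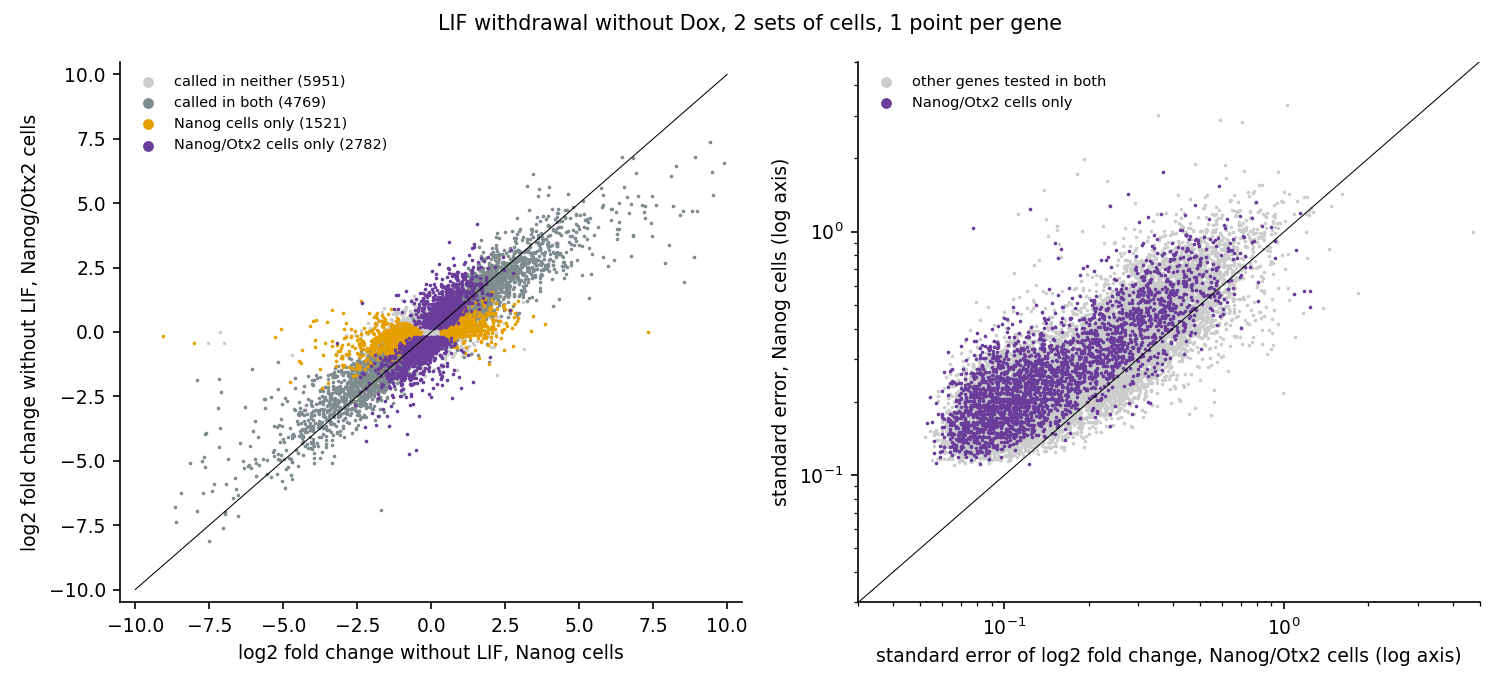
Left, log2 fold change without LIF in Nanog/Otx2 cells against Nanog cells for 15023 genes tested in both, coloured by the set in which they were called. Right, the standard errors of the same changes on log axes, where 95.2% of the 2782 genes called with Nanog/Otx2 cells alone (purple) lie above the line of equality.

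The genes named from these changed by at least 1 log2 unit in both sets. Here Nanog values are given in the order C1-1, C2-1, C2-2 in LIF and C1-1, C1-2, C2-1 without it. Cntfr, the receptor subunit for the LIF-related cytokine CNTF (chr4:41604529-41644121 (- strand)), had 56, 117 and 88 in LIF and 405, 341, 645 and 459 without it in Nanog/Otx2 cells (2.38, SE 0.33, adjusted p = 3.2e-05), with no overlap. In Nanog cells it had 29, 199 and 64 in LIF and 223, 269 and 295 without it (1.40, SE 0.57, adjusted p = 0.0684, blocked adjusted p = 0.00546). The C2-1 library in LIF there came close to the lowest library without it, and the C1-1 library was the lowest of all.

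Dlk1, an imprinted Notch ligand homologue (chr12:110691033-110701546 (+ strand)), had 53, 69 and 69 in LIF and 168, 232, 272 and 240 without it in Nanog/Otx2 cells (1.82, SE 0.24, adjusted p = 1.77e-05) and 16, 104 and 36 in LIF and 118, 123 and 133 without it in Nanog cells (1.22, SE 0.52, adjusted p = 0.0786, blocked adjusted p = 0.0125). Again C1-1 and C2-1 in LIF lay far apart while the libraries without LIF were alike. Dusp10, a phosphatase of stress-activated kinases, had 36, 42 and 65 in LIF and 151, 88, 158 and 128 without it (1.55, SE 0.31, adjusted p = 0.000854), against 11, 67 and 75 in LIF and 119, 120 and 192 without it in Nanog cells (1.43, SE 0.57, adjusted p = 0.0619, blocked adjusted p = 0.00206). Actn2, a sarcomeric alpha-actinin, had 80, 65 and 139 in LIF and 279, 227, 333 and 336 without it (1.71, SE 0.32, adjusted p = 0.00044), against 59, 148 and 126 in LIF and 205, 149 and 338 without it in Nanog cells (1.03, SE 0.67, adjusted p = 0.242, blocked adjusted p = 0.00379), where each clone rose from its own level and the groups met at C2-1 in LIF and C1-2 without it.

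Other genes of this kind that rose included Zcchc12, the adaptor Dok2, the potassium channel Kcnt2, the arginine deiminase Padi3 and Fam171a2. Their changes in Nanog/Otx2 cells were 2.22 ± 0.31, 1.91 ± 0.36, 1.29 ± 0.24, 1.53 ± 0.24 and 1.31 ± 0.21, and in Nanog cells 1.15 ± 0.58, 1.19 ± 0.50, 1.29 ± 0.59, 1.00 ± 0.38 and 1.74 ± 0.69. Their adjusted p there was 0.131, 0.077, 0.0975, 0.054 and 0.061, and with the clone as a block 0.0472, 0.00517, 0.0455, 0.0198 and 0.0255. Gm17143, which rose in Nanog/Otx2 cells (1.43 ± 0.23), had the opposite sign in Nanog cells (-1.18 ± 0.48).

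Among those that fell, Zp3, a protein of the egg coat, had 231, 216 and 42 in LIF and 33, 44, 20 and 28 without it in Nanog/Otx2 cells (-2.51, SE 0.56, adjusted p = 0.00163), with the C2ON3 library in LIF just under the highest library without it. In Nanog cells it had 94, 70 and 76 in LIF and 38, 36 and 23 without it (-1.30, SE 0.56, adjusted p = 0.0806, blocked adjusted p = 0.00412), and there the groups did not overlap. Tmem40 (-2.11 ± 0.56 and -1.24 ± 0.64, adjusted p = 0.142 in Nanog cells, blocked adjusted p = 0.00382) fell too, with no overlap in either set. Zscan4c fell in Nanog/Otx2 cells, and in Nanog cells it had 1143, 396 and 130 in LIF and 109, 545 and 108 without it (-1.16, SE 0.90, adjusted p = 0.322), with 1 library without LIF above 2 of those in LIF. Zfp600 and the related Gm13247 (-1.43 ± 0.22 and -1.39 ± 0.19), of a zinc finger family with near-identical copies, had -1.07 ± 0.45 and -1.14 ± 0.44 in Nanog cells (adjusted p = 0.0755 and 0.0542). Both were called there with DESeq2 (0.042 and 0.0245) and without the filter on low counts (0.0497 and 0.0319), Gm13247 also with thinned counts (0.0369) and without Dox-treated libraries (0.0474). The predicted gene Gm9396 had 0, 3991 and 2722 in LIF and 1125, 56 and 2146 without it in Nanog cells, where the C1 libraries lay below the C2 libraries in both groups, and 1902, 360 and 1829 in LIF and 292, 435, 212 and 226 without it in Nanog/Otx2 cells, where C1ON3-2 in LIF lay among the libraries without it.

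**Figure D4:**
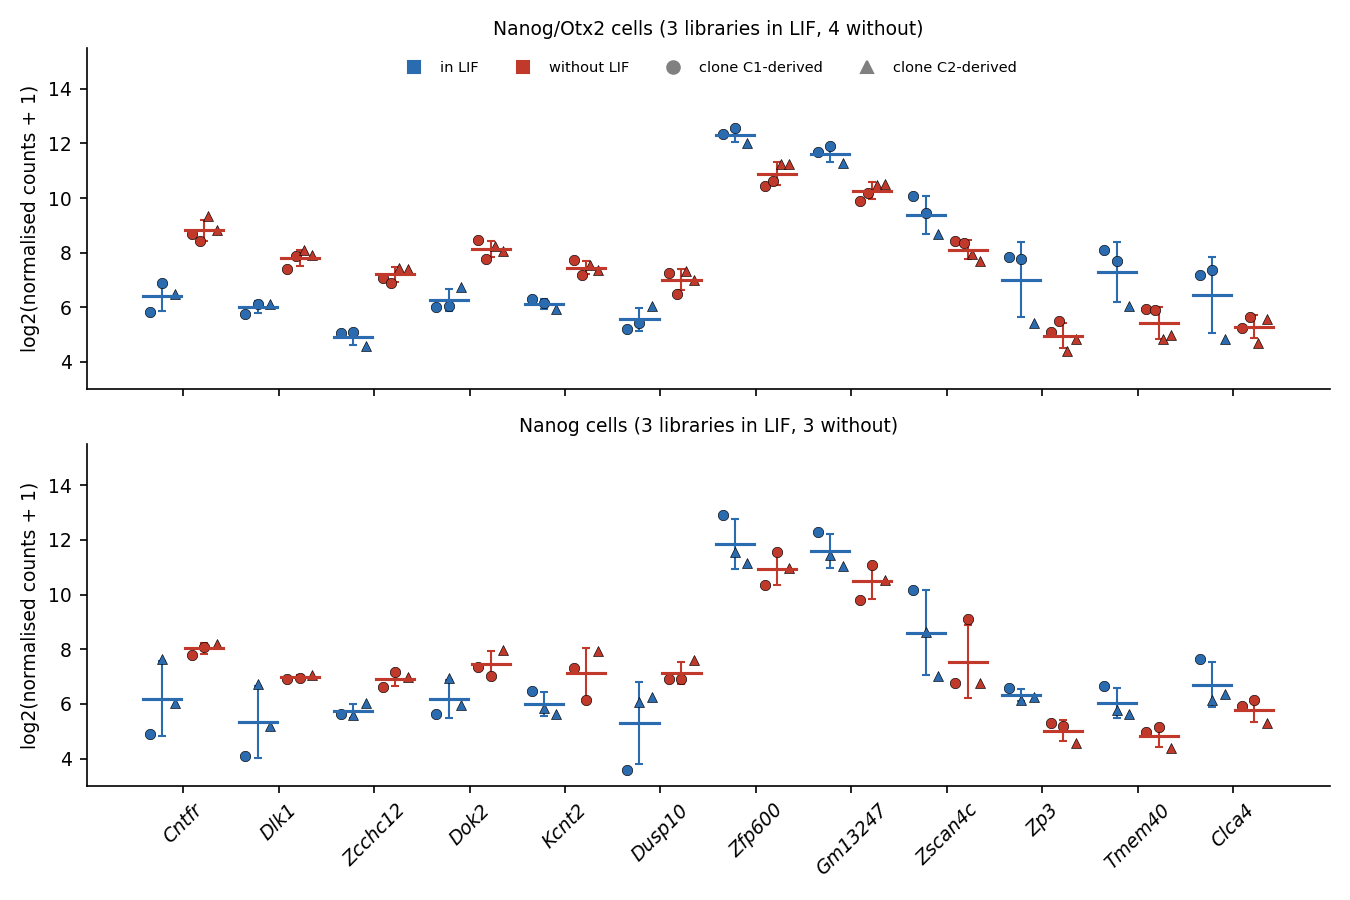
Log2(normalised counts + 1) of 12 genes called with Nanog/Otx2 cells and not with Nanog cells, in each library of the Nanog/Otx2 set (top) and the Nanog set (bottom), with the mean and SD of each group. In the bottom panel the blue points of Cntfr, Dlk1 and Dusp10 spread over a wide range, with the C1-1 library lowest, whereas the top panel keeps red and blue apart for these genes.

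The share of genes of this kind, 18.5% of all genes tested in both sets, varied between the lists. It took in 4 of the 7 tested 2-cell-like markers, 5 of 16 neuroectoderm genes, among them Sox21, and 5 of 21 glycolysis genes. These list totals are genes tested in Nanog/Otx2 cells, and the glycolysis count lies near the share of all genes. The 2-cell-like markers were Zfp352 and the near-identical Zscan4c, Zscan4d and Zscan4f, and 3 of the 4 had the same direction in Nanog cells. No formative marker and no cell cycle gene was called with Nanog/Otx2 cells alone, and of the naive factors only Nacc1 and Dppa3 were. All 5 glycolysis genes of this kind rose, namely Slc2a1, Pfkm, Pfkl, Gpi1 and Pkm2. In Nanog cells their values were 0.42 ± 0.28, 0.34 ± 0.30, 0.44 ± 0.24, 0.01 ± 0.20 and 0.31 ± 0.25 (adjusted p 0.157 to 0.966), and with the clone as a block Slc2a1 (0.0264), Pfkm (0.0291) and Pkm2 (0.0474) were called. Slc2a1 there had 7184, 16144 and 10682 in LIF and 14775, 13004 and 18075 without it, with C1-1 the lowest and C2-1 in LIF above 2 of the libraries without LIF. Kdm6b (0.42 ± 0.29), Sox21 (-1.41 ± 0.87) and Lefty2 (-0.39 ± 0.60) were likewise called in Nanog cells with the block alone. In the blocked fit their changes were 0.68, -2.05 and -0.96 (blocked adjusted p = 0.027, 0.0167 and 0.00901). Utf1 was not called with the block, at 825, 4973 and 4164 in LIF and 3646, 3110 and 5649 without LIF (blocked adjusted p = 0.119).

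The response differed between the 2 sets for 403 of 16210 genes (2.49%), of which 113 (0.697%) were higher and 290 (1.79%) lower in Nanog/Otx2 than in Nanog cells; with the block the count was 954. This count is sensitive to single libraries, as it was 2369 without the C1-1 library of Nanog cells in LIF, with 402 of the 403 among them. That library was the only one of clone C1 in its group. In 144 of the 395 tested in both sets the responses had opposite signs, and 14 of these were called in each set.

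Of the genes of the lists, Trim71 kept this call in every alternative run. It was not called in Nanog/Otx2 cells (1805, 2077 and 2041 in LIF and 2025, 2181, 2094 and 2083 without it; 0.05, SE 0.08, adjusted p = 0.6), and rose in Nanog cells from 1205, 944 and 870 in LIF to 2509, 2678 and 2358 without it (1.30, SE 0.24, adjusted p = 0.0012). The difference was -1.25, SE 0.23, adjusted p = 0.0046. The activin and BMP receptors Acvr2b and Bmpr2 rose by more in Nanog cells (2.47 and 2.31), with differences of -1.61 and -1.88 (adjusted p = 0.0086 and 0.0208). The first was lost when the libraries without Dox were fitted alone (adjusted p = 0.0898), and the second without the C2-1 library of Nanog cells in LIF (0.0638).

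Tet1 fell in Nanog/Otx2 cells, as given above, and in Nanog cells it had 22461, 9620 and 10488 in LIF and 10451, 14288 and 10148 without it (-0.32, SE 0.29, adjusted p = 0.398), where the C1-1 library in LIF was the highest and the others overlapped. The difference of -1.28 (adjusted p = 0.0267) was lost in 7 of the alternatives, most of which left out 1 library. Klf5 fell by less in Nanog cells (difference -0.95, adjusted p = 0.0452) and Evx1 went in opposite directions (difference -3.36, adjusted p = 0.0379), and both differences were lost in 9 or more alternatives. Outside the lists, Stra8, a gene of meiotic entry, had 187, 151 and 227 in LIF and 11, 8, 43 and 40 without it in Nanog/Otx2 cells, and in Nanog cells it had 316, 997 and 326 in LIF and 4, 6 and 11 without it (difference 3.39, SE 0.92, adjusted p = 0.0493). The sialyltransferase gene St6gal2 rose by less in Nanog/Otx2 cells (difference -2.66, SE 0.65, adjusted p = 0.0292). The predicted gene Gm17143 had 168, 174 and 273 in LIF and 501, 395, 660 and 600 without it in Nanog/Otx2 cells and 803, 466 and 467 in LIF and 230, 83 and 460 without it in Nanog cells (difference 2.59, SE 0.53, adjusted p = 0.0107). The differences of Stra8 and St6gal2 were lost in 8 or more alternatives, and that of Gm17143 in the libraries without Dox alone (adjusted p = 0.103).

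Within the Nanog/Otx2 line, the clones C1ON3 and C2ON3 could be compared, with 2 libraries against 2 in C1ON3 and 2 against 1 in C2ON3. The change without LIF differed between them for 951 of 15609 genes (6.09%), 579 (3.71%) with a higher value in C2ON3 and 372 (2.38%) with a lower one. Of these, 446 were also called for the LIF response as a whole and 510 had opposite signs in the clones, while in 139 both clones were called, with opposite signs. Without Dox-treated libraries in the fit only 54 were called, and leaving out single libraries gave 140 to 1006.

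Nanog fell by more in C2ON3 (-3.15 ± 0.14) than in C1ON3 (-1.59 ± 0.12), a difference of -1.55, SE 0.18, adjusted p = 0.0021, and this call held in each alternative run. Without LIF it stood at 6867 and 6327 in C1ON3 and at 1974 and 2533 in C2ON3. Esrrb, by contrast, showed no called difference (-0.15, SE 0.20, adjusted p = 0.702). Dnmt3b rose by more in C2ON3 (difference 1.53, SE 0.16, adjusted p = 0.00112), from a lower level in LIF, and the epithelial factors Grhl2 (difference 1.79, SE 0.23, adjusted p = 0.00459; 1508, 1361 and 583 in LIF and 2502, 2541, 3603 and 3418 without it) and Esrp1 (difference 2.33, SE 0.61, adjusted p = 0.0448) did likewise. Id2 also rose by more in C2ON3 (difference 1.50, SE 0.26, adjusted p = 0.0141), with 755 and 886 in C1ON3 against 1904 and 1718 in C2ON3 without LIF.

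Among genes named by rule, Nrp2, a semaphorin coreceptor, had 1175, 762 and 306 in LIF and 119, 151, 428 and 365 without it (difference 3.26, SE 0.36, adjusted p = 0.00196), with changes of -2.91 ± 0.21 in C1ON3 and 0.35 ± 0.29 in C2ON3. Wt1, a zinc finger factor, had 67, 108 and 23 in LIF and 555, 515, 1310 and 1097 without it (difference 3.10, SE 0.50, adjusted p = 0.0112). Pim2 rose by more in C2ON3 (difference 1.43, SE 0.32, adjusted p = 0.0267). Dppa5a (difference 1.08, SE 0.20, adjusted p = 0.016) and Dppa2 (difference 1.26, SE 0.28, adjusted p = 0.0257) fell by less there. The cell cycle genes Ccne1 (5993, 6061 and 4157 in LIF and 5001, 5138, 6480 and 5623 without it; difference 0.80, SE 0.12, adjusted p = 0.00993) and Cdk2 (difference 0.61, SE 0.11, adjusted p = 0.016) had opposite signs in the clones. The calls of Esrp1, Id2, Wt1, Pim2, Dppa5a, Dppa2, Ccne1 and Cdk2 were lost in the libraries without Dox alone (adjusted p 0.0591 to 0.101). Those of Esrp1, Dppa2, Dppa5a, Pim2 and Cdk2 were also lost without the C1ON3-1 library lacking LIF (adjusted p 0.0551 to 0.0985), and of these Esrp1, Dppa2, Pim2 and Cdk2 without C2ON3-1 lacking LIF (0.0508 to 0.0911), and Esrp1 and Dppa2 without C2ON3-2 lacking LIF or C1ON3-1 in LIF as well (0.0583 to 0.0981). Esrp1 also lost its call without C1ON3-2 lacking LIF (adjusted p = 0.0667). All differences between the clones rest on the single, shallowest library of C2ON3 in LIF.

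**Figure D5:**
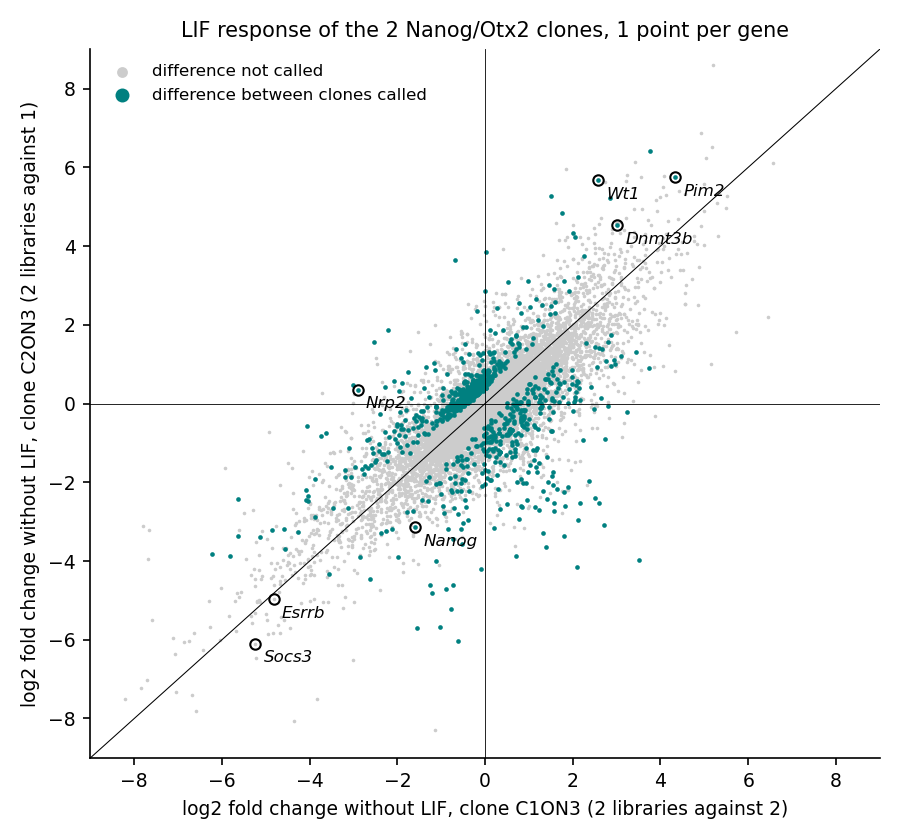
Log2 fold change without LIF in clone C2ON3 (2 libraries against 1) against clone C1ON3 (2 against 2) for 14746 genes, with called differences between the clones in teal and 7 genes named. Genes with 0 counts in the C2ON3 library in LIF (277) are left out and 1 gene lies outside the axes; Nanog lies below the line of equality, and Dnmt3b, Wt1 and Nrp2 above it.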

How the data were processed

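Polyadenylated, stranded RNA was sequenced from uninduced Nanog/Otx2 and Nanog SunTag cells with and without LIF. The deposited estimated counts were made by the authors, who used STAR on mm9, then RSEM per gene, then rounding. CASAVA 1.8 handled the raw reads, per the labels. The deposited signal, called normalised counts here, is these estimated counts divided by the authors' DESeq2 size factors over 35 libraries. Aligner and quantifier versions are not given in the sources used here.

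Libraries were grouped by guide, LIF and Dox. A gene was tested where all libraries of 1 or more groups reached 10 normalised counts. The quasi-likelihood test of edgeR 4.0.16 (R 4.3.3) was run with TMM scaling on all 15 Nanog/Otx2 libraries with LIF, Dox and their interaction as in the study's methods. The 11 Nanog libraries were fitted in the same way, and all 26 together for the difference between the sets. SEs were derived from the F statistic, and adjusted p-values are Benjamini-Hochberg values. The scripts were tested on simulated data. Tables were handled with Python 3.11.15, pandas 2.3.3, numpy 2.4.6 and scipy 1.17.1. DESeq2 1.42.0, other scalings and filters, thinning to 6107512 counts per library, each library left out and a replicate block were tried. The response of each clone was taken from a fit of all 15 Nanog/Otx2 libraries with separate clones, which share 1 estimate of the spread.

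Titles give each Nanog/Otx2 library a clone and a number. Same-numbered libraries with and without LIF deviated together from their group means (r = 0.197, 0.278 and 0.188 over 15041 genes), so they were taken as pairs. Libraries of the same clone with other numbers had r = 0.143, -0.0737 and 0.168. In the table the lone C2ON3 library in LIF carries another number than in its title, and the title was used. In Nanog cells the block was the clone. Intervals take in counting error and the spread between libraries, nothing more.

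Genes named were those of 19 lists and, for each test, the 10 called genes changed most each way, provided that the higher group averaged 100 normalised counts or more and the groups did not overlap. For genes called with Nanog/Otx2 cells alone, they were the 10 with the smallest adjusted p each way, at that level and changed by at least 1 log2 unit in both sets. Not all are given, and some items are not reported here. Members and lists were chosen with earlier results of these data known. A gene with at most 3 counts in every library of a group was given a bound computed against 3 counts in each library. Genes with near-identical copies, such as Zscan4c, Zfp600 and Gm13247, are uncertain. Coordinates are those of NCBIM37 (mm9), and promoter sequences those of RefSeq on GRCm38.p6.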

Additional observations from a re-analysis of the deposited data

Results flagged for a closer look

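In 3 genes 1 of the 4 libraries without LIF stood far from the others by Dixon's test, out of 204 groups of 4 examined, and chance flags about 1 in 20 groups. Dnmt3b stood at 78562 normalised counts in C1ON3-1, below the other 3. Fn1 stood at 7785 in C2ON3-2, above the others, and Prdm1 at 102 in C2ON3-1, below the others. All 3 lie well outside the values in LIF.

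The response to LIF loss differed between the Nanog/Otx2 and Nanog sets for genes given in the report, tested as an interaction in the fit of all 26 SunTag libraries. The differences (Nanog/Otx2 minus Nanog, log2) were -1.25 for Trim71, -1.61 for Acvr2b, -1.88 for Bmpr2, -1.28 for Tet1, -0.95 for Klf5, -3.36 for Evx1, -2.66 for St6gal2, 3.39 for Stra8 and 2.59 for Gm17143. The added guide, the further cloning step and any batch behind the library names cannot be told apart here.

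The response differed between the clones (C2ON3 minus C1ON3, log2) by -1.55 for Nanog, 1.53 for Dnmt3b, 1.79 for Grhl2, 2.33 for Esrp1, 1.50 for Id2, 3.26 for Nrp2, 3.10 for Wt1, 1.43 for Pim2, 1.08 for Dppa5a, 1.26 for Dppa2, 0.80 for Ccne1 and 0.61 for Cdk2. The shallow C2ON3 library in LIF enters each of them.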

How the results depend on the processing

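The count of genes called for LIF loss in Nanog/Otx2 cells stayed between 6275 and 9655 in the alternatives that estimated 1 response for both clones. Without single libraries it lay between 6682 and 7638. With same-numbered libraries paired (the replicate block) it was 9642, and 7734 of the 7768 genes remained called. In Nanog cells the count was 4894 to 7953 without single libraries and 7239 with the clone as a block. The difference between the sets moved from 403 to 856 with DESeq2, 71 in the libraries without Dox alone, 954 with the block and 149 to 2369 without single libraries. The difference between the clones moved from 951 to 54 in the libraries without Dox alone, 2445 without the filter on low counts and 140 to 1006 without single libraries. Genes called with Nanog/Otx2 cells alone numbered 2782, 2645 with DESeq2, 3535 with the block in both sets and 2062 to 3684 without single libraries. Dropping 1 Nanog/Otx2 library without LIF gave 2434 to 2608 with the Dox libraries kept. When the Dox libraries were left out of both sets as well, leaving 3 against 3, the number was 1731 to 2074. The cause of these movements was not tested. Of 3836 values of 202 genes for the LIF response, 3720 kept direction and side of the threshold, 47 lost a call, 66 gained one and 3 changed sign, all in C2ON3 on its own: Pax6 (1.14), Col1a1 (-0.23) and Nrp2 (0.35). Calls were lost for C2ON3 in that fit too, where 1 library stands for the clone in LIF. Without the C1ON3-1 library in LIF 7 calls were lost, among them Nrp2 (adjusted p = 0.0903). The blocks changed no call among the genes named other than those given in the report. Dnmt3l (0.0163), Gata6 (0.0213) and Suz12 (0.03) were also called without C2ON3-2 lacking LIF, Etv4 without C2ON3-1 lacking LIF (0.0439), and Sycp2 without the C2ON3 library in LIF (0.0415). All 26 SunTag libraries fitted together lost 8 calls, those of Nacc1, Utf1, Ccne2, Pkm2, Col1a1, Twist1, Zscan4c and Gm9396 (adjusted p 0.0518 to 0.208). Thinning every library to 6107512 counts, the total of the only C2ON3 library in LIF, left 6275 genes called.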

Other observations

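The differences between the clones without LIF were looked at in both sets, since C1ON3 and C2ON3 descend from the Nanog clones C1 and C2. Nanog stood at 6867, 6327, 1974 and 2533 in Nanog/Otx2 cells without LIF, the first pair from C1ON3, and at 7032 and 8484 in C1 against 2234 in C2 in Nanog cells. Nes stood at 2868 and 3220 in C1 and 1069 in C2 of the Nanog cells, the same order as in Nanog/Otx2 cells. Id2, at 1146 and 1494 in C1 and 1995 in C2, kept its order too. Over 11199 genes that averaged 100 normalised counts or more, the difference C2 minus C1 correlated between the sets at r = 0.596 without LIF and 0.363 in LIF. These correlations are across genes, which are no independent replicates, and they carry no test. Of 335 genes at least 1 log2 unit apart between the Nanog/Otx2 clones without LIF, 310 (92.5%) pointed the same way in Nanog cells, against 69.2% of all genes of that level, and 133 were at least 1 unit apart there as well.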
